A study of Mus musculus with 12 samples.

Results

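The type I interferon response genes are the genes that a cell switches on after an interferon of the alpha or beta kind binds its surface receptor. A list of 44 gene symbols was used, chosen by name with earlier results of these data known. Each symbol was found among the 46262 genes of the table, with transcript values summed per gene. A gene entered the tests if 3 or more of the 12 libraries held it at 1 TPM or above. TPM, transcripts per 1000000, is a level that is scaled for transcript length and adds up to that total in every library. Of the 44 genes, 43 were tested among 12419 genes in all. The remaining gene, Ifi27l2a, is described with the short transcripts.

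The 12 libraries came from primary microglia of wild-type mice, taken from mixed glia of the forebrain or the cerebellum in culture. They were kept for 24 hours with CSF-1 (20 ng/ml) or with IL-34 (100 ng/ml), with 3 libraries in each of the 4 groups. All groups shared the culture and the presence of a ligand. The design text describes the 3 cultures of a group as independent, and the strain of the animals is not stated in the labels, and of their age the deposited table's name says only that the microglia were neonatal. CSF-1 and IL-34 are the ligands of the receptor CSF1R, on which microglia depend. Because their concentrations differed, ligand and concentration cannot be told apart. The labels name no interferon treatment. The microglial genes Csf1r (1130 to 1330 TPM), Trem2 (783 to 932 TPM) and Cx3cr1 (234 to 368 TPM) were present in every library. The markers P2ry12 (7.1 to 11.7 TPM), Tmem119 (7.15 to 20.4 TPM) and Sall1 (4.19 to 6.26 TPM) were low in all libraries. Tmem119 had means of 8.88 and 8.86 TPM in forebrain and 18.8 and 18.9 TPM in cerebellum (CSF-1 and IL-34). Summed markers of lymphocytes, NK cells and neutrophils reached at most 0.137 TPM.

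Interferons alpha and beta bind the receptor IFNAR, whose kinases JAK1 and TYK2 phosphorylate STAT proteins, STAT2 among them. With IRF9 these form the complex ISGF3, which binds an interferon-stimulated response element in the promoters of the target genes. The targets include sensors of foreign nucleic acid, parts of the signalling chain itself, which amplify or stop it, and effectors that block viral replication. In the brain, microglia carry a low constant level of this response, and it rises with infection, ageing and injury.

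Promoters are shown because this element can be read in their letters. Promoter sequence was taken from RefSeq (GRCm38.p6) as the window from 250 bases before to 50 bases after the start, 300 bases in all, and 33 of the 44 genes had an entry, matched by symbol. Oas2, Mx1, Mx2, Parp14, Parp9, Ifi27l2a, Rtp4, Dhx58, Ifi204, Zbp1 and Usp18 had none. The core of the element was searched as GAAA, any 2 bases and a further GAAA, on both strands, where neighbouring matches may overlap. It was found in the window of 14 of the 33 genes (42.4%), against 3.97% of the 8996 tested genes with an entry and 3.44% of all 32851 promoters of this length. The 250 bases before the start are printed here for 3 genes and for Isg15, which did not follow them. Among the genes that hold the motif, the 3 had the smallest p in the regional comparison over both ligands. Capitals mark the motif, and each sequence runs in the direction of its gene.
Ifit1: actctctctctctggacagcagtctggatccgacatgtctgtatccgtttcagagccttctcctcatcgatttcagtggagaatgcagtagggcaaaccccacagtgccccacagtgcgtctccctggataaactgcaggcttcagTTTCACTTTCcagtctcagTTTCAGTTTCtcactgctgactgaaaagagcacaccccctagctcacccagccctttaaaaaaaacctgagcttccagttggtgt
Ifit3: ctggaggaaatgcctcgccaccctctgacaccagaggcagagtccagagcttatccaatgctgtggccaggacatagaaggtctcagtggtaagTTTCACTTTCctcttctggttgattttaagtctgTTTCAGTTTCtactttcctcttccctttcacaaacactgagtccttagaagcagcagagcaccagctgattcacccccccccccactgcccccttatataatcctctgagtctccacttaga
Rsad2: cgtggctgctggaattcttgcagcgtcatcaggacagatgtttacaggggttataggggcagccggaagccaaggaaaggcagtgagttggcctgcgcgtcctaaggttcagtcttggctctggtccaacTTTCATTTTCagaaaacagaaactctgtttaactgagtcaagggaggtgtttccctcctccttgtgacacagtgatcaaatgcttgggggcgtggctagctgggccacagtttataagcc
Isg15: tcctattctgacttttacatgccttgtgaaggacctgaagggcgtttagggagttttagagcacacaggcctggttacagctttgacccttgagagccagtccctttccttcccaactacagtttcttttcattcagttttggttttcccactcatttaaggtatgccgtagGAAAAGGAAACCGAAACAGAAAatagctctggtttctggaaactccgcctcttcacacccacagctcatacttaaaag
These lie at chr19:34640639-34640888 (plus strand), chr19:34583279-34583528 (plus strand), chr12:26456453-26456702 (minus strand) and chr4:156200819-156201068 (minus strand). In Ifit1 the motif began 104 and 85 bases before the start, in Ifit3 156 and 122 bases, and in Rsad2 120 bases, each read as its complement on the printed strand. Isg15 held 3 overlapping matches that began 78, 72 and 66 bases before the start. The 2 Ifit2 entries held no match, which says only that these letters are not in those windows. A match is a stretch of letters and not a measured binding site.

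The levels of the response genes differed widely. Lgals3bp, a secreted glycoprotein that binds galectins, was the most abundant gene (mean 833 TPM over 12 libraries), followed by Irf7 (688 TPM), the transcription factor that amplifies interferon production, and Ifitm3 (644 TPM), a membrane protein that stops viruses in endosomes. Ifi44 (5.75 TPM), Mx2 (7.86 TPM) and Mx1 (14.3 TPM) were the least abundant of the tested genes. The 43 tested genes and Ifi27l2a together made up 0.756 to 0.881% of each forebrain library and 0.658 to 0.782% of each cerebellar library. The interferon genes themselves were at or near 0. None of the 10 interferon genes on a fixed list passed the filter: Ifnb1, Ifng, Ifna4, Ifne and Ifnl2 are listed at 0 in all 12 libraries. The highest value was 3.17 TPM, for Ifnl3 in a single library, and the other interferon genes stayed at or below 0.498 TPM.

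**Figure D1:**
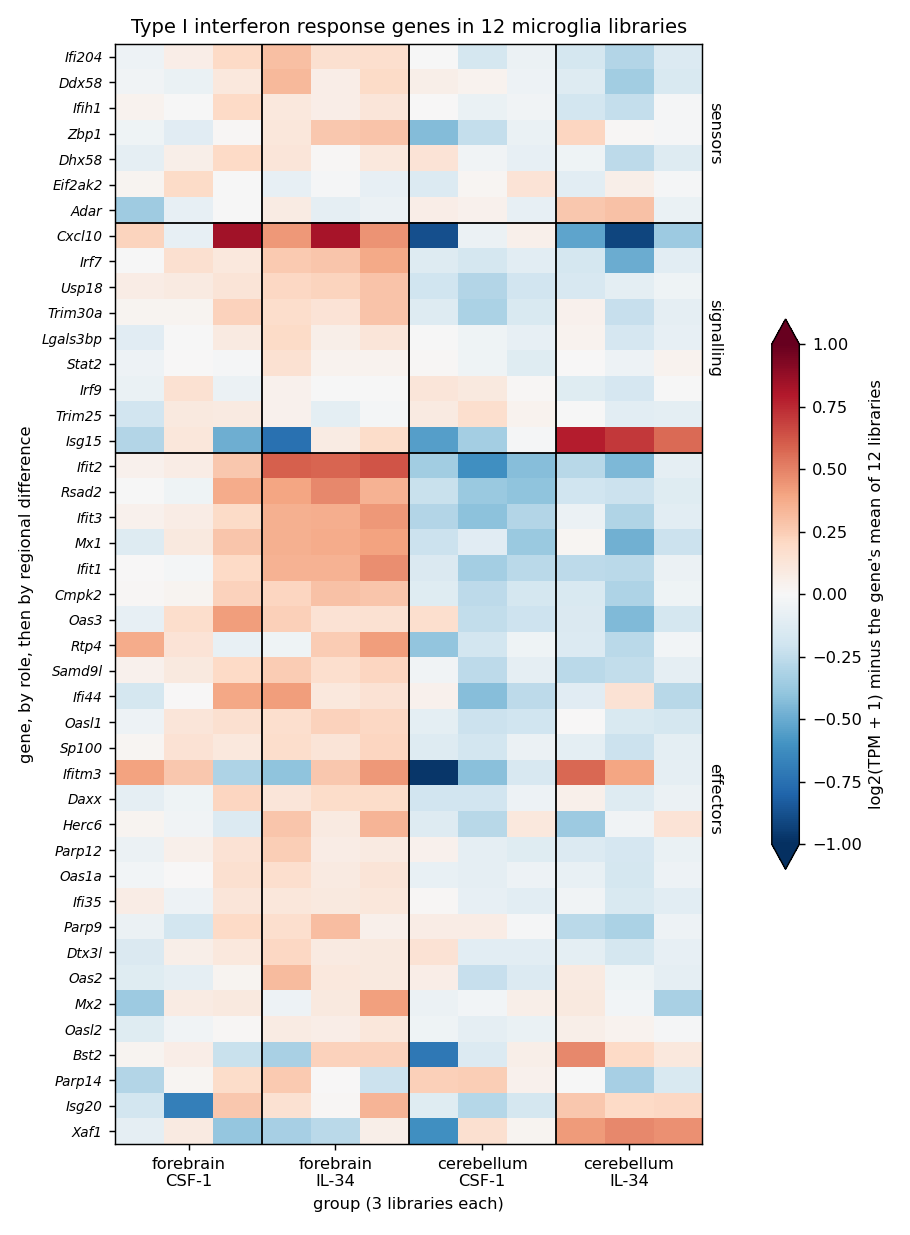
Each row is 1 of the 43 tested genes, grouped by role and then ordered by the difference between regions, and each column is 1 of 12 libraries. Colour gives log2(TPM + 1) minus the gene's mean over 12 libraries, from blue (lower) to red (higher), and the rows at the top of each role are mostly red in forebrain, more so with IL-34, and mostly blue in cerebellum.

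The first comparison asks whether the response genes differ between microglia of the 2 brain regions. They were lower in cerebellar than in forebrain microglia. Averaged over both ligands, 22 of the 43 genes were called lower (51.2%) and 0 higher, where 10.6% of all tested genes were called lower and 9.58% higher. A gene was called where the adjusted p was under 0.05, in limma on log2(TPM + 1) with the Benjamini-Hochberg adjustment over all 12419 genes, two-sided. The median difference was -0.18 over the 43 genes and 0.01 over all genes tested (log2, cerebellum minus forebrain), and 37 of the 43 differences were negative. All 6 cerebellar libraries lay below all 6 forebrain libraries for 10 genes, all 10 of them called: Ifit1, Ifit2, Ifit3, Usp18, Irf7, Rsad2, Cmpk2, Sp100, Samd9l and Oas1a. Among all tested genes 4.18% had that separation. In bulk samples, fewer cells of a responding kind and less RNA per cell cannot be told apart.

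Among effectors, 15 of 27 were called lower. The 3 IFIT genes, whose proteins bind foreign RNA and stop its translation, were all called lower, and their regional differences were among the largest of the list. Ifit2 was measured at 138, 141 and 161 TPM in forebrain with CSF-1, at 203, 201 and 208 TPM in forebrain with IL-34, at 105, 87.1 and 99.3 TPM in cerebellum with CSF-1, and at 110, 97.7 and 126 TPM in cerebellum with IL-34. The highest cerebellar library was thus below the lowest forebrain library, and the forebrain libraries with IL-34 stood above all others. The difference of Ifit2 was -0.73 (SE 0.07, adjusted p = 3.84e-05, limma), a level 1.66-fold lower in cerebellum. Ifit3 was measured at 427, 438 and 475 TPM and at 533, 535 and 561 TPM in forebrain with CSF-1 and IL-34, and at 340, 312 and 339 TPM and 398, 337 and 387 TPM in cerebellum. The order of the groups was that of Ifit2, and the regions did not overlap (difference -0.49, SE 0.05, adjusted p = 5.78e-05, limma). Ifit1 ranged from 130 to 182 TPM over the 6 forebrain libraries (median 160) and from 104 to 127 TPM over the 6 cerebellar ones (median 110). Its difference was -0.45 (SE 0.06, adjusted p = 0.000334, limma). The 3 genes lie near each other on chromosome 19, with gaps of 7111 bases from Ifit2 to Ifit3 and 52139 bases from Ifit3 to Ifit1. Ifit3 has a near-identical copy, Ifit3b, so its reads may be shared.

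Rsad2, or viperin, makes a chain-terminating nucleotide from CTP, and Cmpk2 beside it on chromosome 12 is a nucleotide kinase. Rsad2 lay between 51.2 and 74.1 TPM in forebrain (median 67.9) and between 39.6 and 48.4 TPM in cerebellum (median 45.2), a difference of -0.51 (SE 0.07, adjusted p = 0.000586, limma). Cmpk2 lay between 72.9 and 88.7 TPM in forebrain (median 84.6) and between 58.2 and 70.3 TPM in cerebellum (median 64.5), a difference of -0.35 (SE 0.06, adjusted p = 0.00154, limma). The regions did not overlap for either gene. Isg20, an exonuclease that degrades RNA and the last gene of that class, differed by 0.03 (SE 0.13, adjusted p = 0.897, limma).

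**Figure D2:**
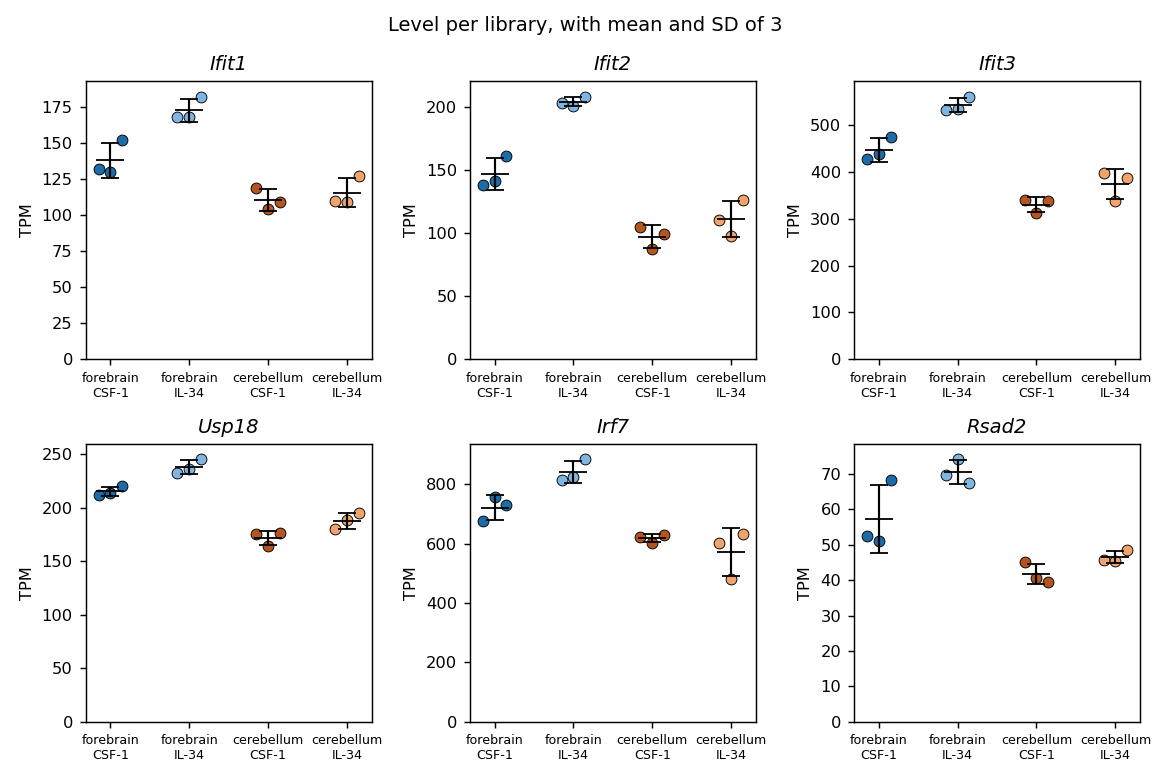
Each panel shows 1 gene, with a point for every library in TPM on an axis that starts at 0, and the bar gives the mean and SD of 3. In all 6 panels the highest cerebellar library lies below the lowest forebrain library.

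Genes of several other effector classes were called lower too. Of the 5 oligoadenylate synthetases, which make the messenger that activates RNase L or, in the OASL proteins, modulate sensing, Oas1a, Oas3 and Oasl1 were called lower and 0 higher. Oas1a lay between 385 and 441 TPM in forebrain (median 424) and between 348 and 380 TPM in cerebellum (median 373), without overlap (difference -0.17, SE 0.04, adjusted p = 0.0107, limma); it has a near-identical copy, Oas1g, so its reads may be shared. Oasl1 lay between 35.3 and 43.1 TPM in forebrain (median 41.1) and between 31.4 and 36.7 TPM in cerebellum (median 32.6), and the groups overlapped in a narrow range (difference -0.28, SE 0.05, adjusted p = 0.00399, limma). Oasl2, the most abundant of the class, did not pass (difference -0.04, SE 0.03, adjusted p = 0.406, limma). Mx1, a GTPase that traps viral nucleocapsids, had a mean of 16.8 TPM ± 2.38 (SD, n = 6) in forebrain and 11.9 TPM ± 1.6 (SD, n = 6) in cerebellum. The lowest forebrain library, at 12.8 TPM, lay below the highest cerebellar one, at 14.3 TPM, and the difference was -0.46 (SE 0.09, adjusted p = 0.00686, limma). Mx2, which the annotation calls a polymorphic pseudogene, did not pass (-0.09, SE 0.11, adjusted p = 0.605, limma). Both nuclear body proteins were called lower: Sp100, with a difference of -0.26 (SE 0.04, adjusted p = 0.000888, limma), and Daxx, with -0.19 (SE 0.06, adjusted p = 0.0392, limma). Sp100 was at 216 to 248 TPM in forebrain (median 234) and 184 to 205 TPM in cerebellum (median 197), without overlap.

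Among the PARP and DTX enzymes, which attach ADP-ribose or ubiquitin, Parp12 was the 1 gene of 4 that was called lower, from 153 to 189 TPM in forebrain (median 169) to 141 to 164 TPM in cerebellum (median 148). Its difference was -0.18 (SE 0.05, adjusted p = 0.0227, limma). Dtx3l and Parp9 overlap by 682 bases on opposite strands, and without strand information their reads in that stretch cannot be told apart. The other induced genes of no shared class gave 3 calls among 6 tested genes: Samd9l, a brake on translation and growth, lay at 89.3 to 104 TPM in forebrain (median 98.8) and 72 to 84.9 TPM in cerebellum (median 77.4), without overlap (-0.33, SE 0.05, adjusted p = 0.00145, limma). Ifi35 differed by -0.16 (SE 0.04, adjusted p = 0.0159, limma). Rtp4, a chaperone of G-protein-coupled receptors, differed by -0.35 (SE 0.1, adjusted p = 0.0261, limma), with a forebrain range of 387 to 543 TPM that overlapped the cerebellar one of 309 to 398 TPM. The Rtp4 call was lost without replicate 1 or 2 of either cerebellar group, without forebrain CSF-1 replicate 1, and without forebrain IL-34 replicate 2 or 3.

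Of the 7 sensors, 3 were called lower. Ddx58, which encodes the RNA sensor RIG-I, lay at 110 to 145 TPM in forebrain (median 123) and 90.9 to 121 TPM in cerebellum (median 109), with overlap (difference -0.19, SE 0.06, adjusted p = 0.0354, limma). Ifi204, a DNA sensor of a family with near-identical copies whose reads may be shared, lay at 317 to 404 TPM in forebrain (median 369) and 268 to 328 TPM in cerebellum (median 295). Its difference was -0.28 (SE 0.05, adjusted p = 0.00396, limma). Ifih1, or MDA5, was the third (-0.18, SE 0.05, adjusted p = 0.0318, limma). The RNA editor Adar and the kinase Eif2ak2, or PKR, did not pass, at 0.17 (SE 0.08, adjusted p = 0.149, limma) and -0.01 (SE 0.06, adjusted p = 0.905, limma).

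Of the 9 signalling genes, 4 were called lower. Usp18, the protease that removes ISG15 from proteins and brakes the interferon receptor, was measured at 212, 214 and 220 TPM in forebrain with CSF-1 and at 232, 236 and 245 TPM with IL-34, and at 175, 164 and 176 TPM and 180, 188 and 195 TPM in cerebellum. The regions did not overlap, and the spread within a group was 4.13 to 7.62 TPM (SD, n = 3). The difference was -0.33 (SE 0.03, adjusted p = 6.52e-05, limma). Irf7 was measured at 676, 757 and 731 TPM and at 815, 824 and 884 TPM in forebrain with CSF-1 and IL-34, and at 621, 603 and 631 TPM and 602, 481 and 633 TPM in cerebellum. All cerebellar libraries were below all forebrain libraries (-0.39, SE 0.06, adjusted p = 0.0015, limma). Trim30a, a ubiquitin ligase that dampens innate signalling, differed by -0.29 (SE 0.06, adjusted p = 0.00662, limma), from 99.9 to 120 TPM in forebrain to 78.5 to 101 TPM in cerebellum. The chemokine Cxcl10, which attracts T cells, had the largest difference and the widest spread: 17.2 to 33.5 TPM in forebrain (median 25.2) and 9.23 to 19 TPM in cerebellum (median 13.2), a 1.86-fold lower level (-0.9, SE 0.2, adjusted p = 0.00898, limma). Its ranges overlapped. The transcription factors Stat2 and Irf9 did not pass, at -0.06 (SE 0.04, adjusted p = 0.308, limma) and -0.02 (SE 0.05, adjusted p = 0.799, limma). The ubiquitin-like protein Isg15 went the other way without passing (0.38, SE 0.16, adjusted p = 0.127, limma).

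**Figure D3:**
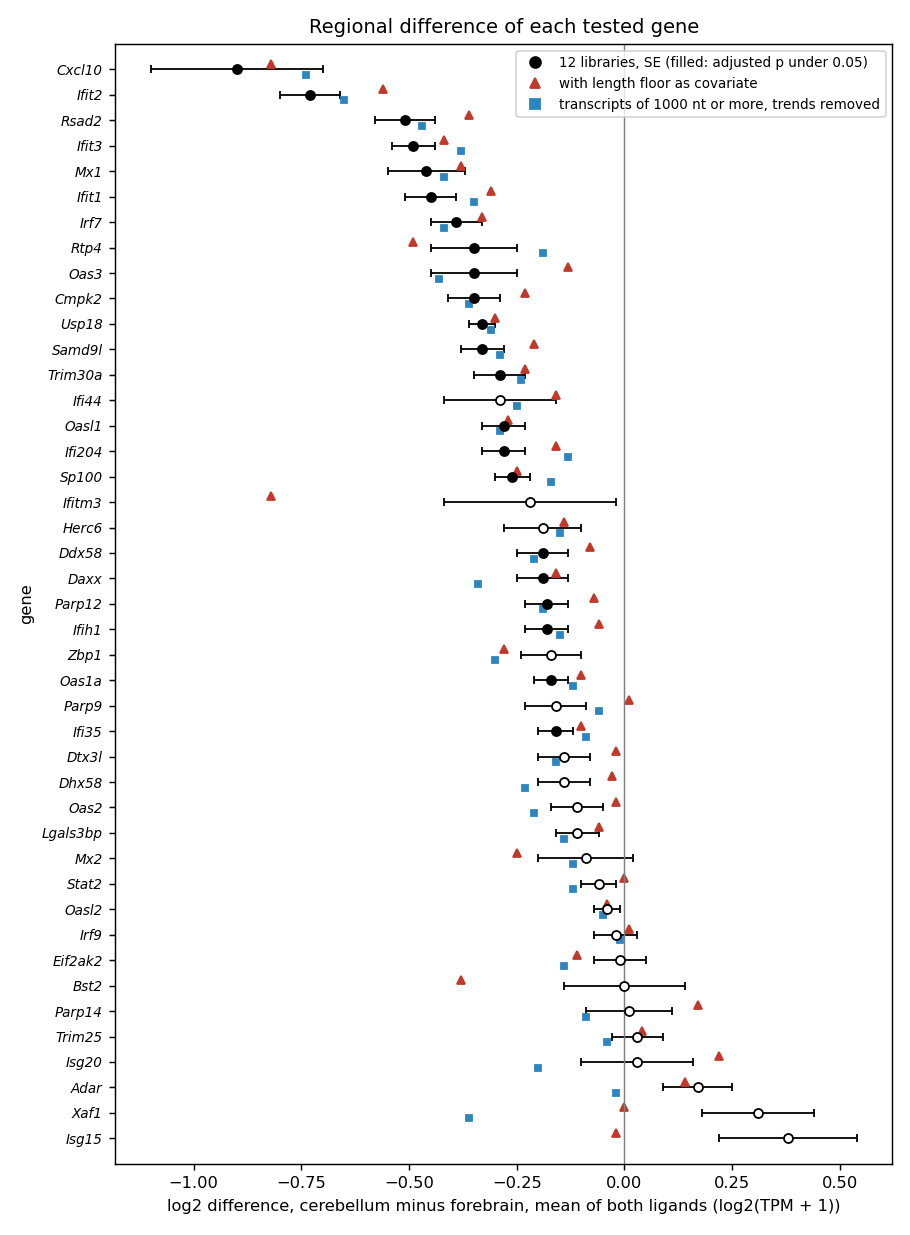
Each row gives the difference between regions of 1 gene in log2(TPM + 1), cerebellum minus forebrain, with its SE as a bar and a filled point where it was called. Triangles add each library's length floor as a covariate, and squares use transcripts of 1000 nt or more with length and GC trends removed. All 40 squares lie below 0, so Xaf1, Adar, Trim25, Isg20 and Parp14 change side between the point and the square.

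Within single ligands the regional difference kept its direction for most genes. Under CSF-1, 6 of the 43 genes were called lower (14%) and 0 higher, against 3.42% of all tested genes called lower and 3.29% higher: Ifit1, Ifit2, Ifit3, Usp18, Rsad2 and Sp100. Under IL-34, 20 were called lower (46.5%, against 8.22% of all tested genes) and 2 higher, against 5.27% of all tested genes: Isg15 and Xaf1. The largest differences under IL-34 among the lower genes were those of Cxcl10 (-1.17, SE 0.28, adjusted p = 0.0189, limma), Ifit2 (-0.88, SE 0.1, adjusted p = 0.000266, limma) and Mx1 (-0.6, SE 0.13, adjusted p = 0.0144, limma). The difference of Irf7 under IL-34 was -0.56 (SE 0.09, adjusted p = 0.00239, limma), and under CSF-1 the value of -0.22 did not pass (SE 0.09, adjusted p = 0.165, limma). Parp9 was called under IL-34 alone (-0.39, SE 0.1, adjusted p = 0.0306, limma). The count under CSF-1 fell to 3 without cerebellum CSF-1 replicate 2, and the count under IL-34 fell to 11 without cerebellum IL-34 replicate 2 and to 14 without forebrain IL-34 replicate 1. With each library's length floor, a measure of the shortest transcripts it recovered, as a covariate, the count under IL-34 was 1, Ifit2 (0.596% of all tested genes lower). Without the 2 libraries of lowest floor, both in the cerebellar IL-34 group, it was 3, Ifit2, Ifit3 and Irf7 (1.27%), all lower in cerebellum.

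Other measures moved with the region. Of 11 tested entries for the 10 listed microglial markers, 1 was called higher and 1 lower in cerebellum. Summed astrocyte markers lay at 30.4 to 33.5 TPM in forebrain and 15.1 to 20 TPM in cerebellum, and 6 of 7 tested astrocyte markers were called lower in cerebellum, with Slc1a2 at no more than 0.239 TPM in any library. Of 5 tested markers of border-associated macrophages, 3 were called lower and 0 higher. Their summed levels were 153 to 217 TPM in forebrain and 106 to 210 TPM in cerebellum, with Cd163 and Lyve1 at no more than 1 TPM in any library. Pf4 went the other way without a call, at means of 22.7 and 17.3 TPM in forebrain and 41.8 and 106 TPM in cerebellum (CSF-1 and IL-34). Of the 4 tested markers of the oligodendrocyte lineage, 2 were called higher and 1 lower in cerebellum (sums of 55.8 to 69.7 against 72.1 to 97.2 TPM). Neuronal markers summed to 1.74 to 4.58 TPM in forebrain and 0.381 to 1.3 TPM in cerebellum, with 0 of 1 tested markers called, and mesenchymal and endothelial markers to 8.33 to 14 TPM and 4.45 to 6.16 TPM, with 1 of 3 tested markers called lower. The part of all these in the result was not tested. The length floor of a library is the length that 1% of its transcripts at 5 TPM or more do not reach. Replicates 1, 2 and 3 of cerebellum with IL-34 had floors of 503, 491 and 580 nt, and the other 9 libraries had floors of 592 to 669 nt. That floor cannot be told apart from the group, since none of the other 9 libraries was as low. With the floor as a covariate 8 of the 43 genes were called lower in cerebellum and 0 higher (against 3.32% of all tested genes lower), and without the 2 libraries of lowest floor 12 were (4.82%), so both counts fell by more than 1.5 times. On transcripts of 1000 nt or more 29 of 40 tested genes were called lower and 0 higher (17.5% of all tested genes lower). Ifit1, Ifit2, Ifit3, Usp18, Rsad2, Sp100 and Samd9l were called lower in each of the 12 fits that left out 1 library and in each of the 12 other alternatives. With Ifitm3 these 7 made up the 8 calls with the floor as a covariate. For Ifit2 the difference was -0.56 with that covariate and -0.64 without the 2 libraries.

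The second comparison asks how the response genes differ between IL-34 and CSF-1. Averaged over both regions, 6 of the 43 genes were called higher with IL-34 (14%) and 0 lower, where 2.73% of all tested genes were called higher and 10.7% lower. The median was 0.07 over the 43 genes and -0.07 over all tested genes (log2, IL-34 minus CSF-1). The 6 genes were Ifit1, Ifit2, Ifit3, Usp18, Zbp1 and Oasl2, so the 3 IFIT genes and the brake Usp18 were called in both comparisons, lower in cerebellum and higher with IL-34. The 2 comparisons rest on the same 12 libraries.

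Ifit2 was 1.26-fold higher with IL-34 (0.33, SE 0.07, adjusted p = 0.0111, limma), Ifit3 by 0.23 (SE 0.05, adjusted p = 0.0119, limma) and Ifit1 by 0.19 (SE 0.06, adjusted p = 0.0486, limma). For Ifit1 the forebrain means were 138 TPM ± 11.8 with CSF-1 and 173 TPM ± 8.24 with IL-34, and the cerebellar means 111 TPM ± 7.85 and 115 TPM ± 9.82 (SD, n = 3 each). The IL-34 libraries were thus all above the CSF-1 libraries in forebrain, and they overlapped in cerebellum. Usp18 was higher by 0.13 (SE 0.03, adjusted p = 0.0244, limma), with no overlap between ligands within either region. Zbp1, a sensor of Z-form nucleic acid that can start cell death, was measured at 117, 112 and 122 TPM with CSF-1 and 131, 146 and 147 TPM with IL-34 in forebrain. In cerebellum it was at 89.5, 102 and 115 TPM with CSF-1 and 141, 122 and 120 TPM with IL-34. The ligands did not overlap within either region (0.29, SE 0.07, adjusted p = 0.0155, limma). The Zbp1 call was lost on transcripts of 1000 nt or more, with the length floor as a covariate (0.23, adjusted p = 0.0999, limma) and without the 2 libraries of lowest floor (0.25, adjusted p = 0.121, limma). Oasl2 rose by 0.11 (SE 0.03, adjusted p = 0.0342, limma), a call that was kept in 3 of the 12 fits that left out 1 library, those without forebrain CSF-1 replicate 3, forebrain IL-34 replicate 1 or cerebellum IL-34 replicate 3. The count of 6 fell to 3 without cerebellum CSF-1 replicate 2, cerebellum IL-34 replicate 2, or forebrain IL-34 replicate 2 or 3.

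In forebrain alone, Ifit2 was the 1 gene called, 1.39-fold higher with IL-34 (0.47, SE 0.1, adjusted p = 0.0423, limma; 0.427% of all tested genes were called higher and 0.773% lower). That call was lost without forebrain CSF-1 replicate 1 or 2, any 1 forebrain IL-34 replicate, cerebellum CSF-1 replicate 1 or 3, or cerebellum IL-34 replicate 1. The other forebrain differences were small and mostly of the same sign: 39 of the 43 were positive, with a median of 0.13 against -0.04 for all tested genes, and 10 had an unadjusted p under 0.05, against 14.2% of all tested genes. In cerebellum 23 of 43 were positive (median 0.01, against -0.1 for all tested genes), and Isg15 (0.99, SE 0.23, adjusted p = 0.0234, limma) and Zbp1 (0.32, SE 0.09, adjusted p = 0.047, limma) were called, against 3.00% of all tested genes called higher and 9.82% lower. On transcripts of 1000 nt or more, Ifit2 was called higher (0.25, SE 0.09, adjusted p = 0.0477, limma; 2.02% of all tested genes) and Ddx58 (-0.24, SE 0.08, adjusted p = 0.0349, limma) and Parp14 (-0.37, SE 0.12, adjusted p = 0.0438, limma) were called lower with IL-34 (21.1%). Neither of the 2 calls over all transcripts was kept without replicate 1 or 2 of either cerebellar group. The difference between the regions' ligand differences was called for 0 of the 43 genes by limma, where 0.121% and 0.0242% of all tested genes were called higher and lower. An unadjusted p under 0.05 was found for 7 of the 43, against 12.1% of all tested genes. The smallest adjusted p was that of Ddx58, 0.267 (-0.41, SE 0.11, limma), for which IL-34 minus CSF-1 was 0.19 in forebrain and -0.22 in cerebellum.

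**Figure D4:**
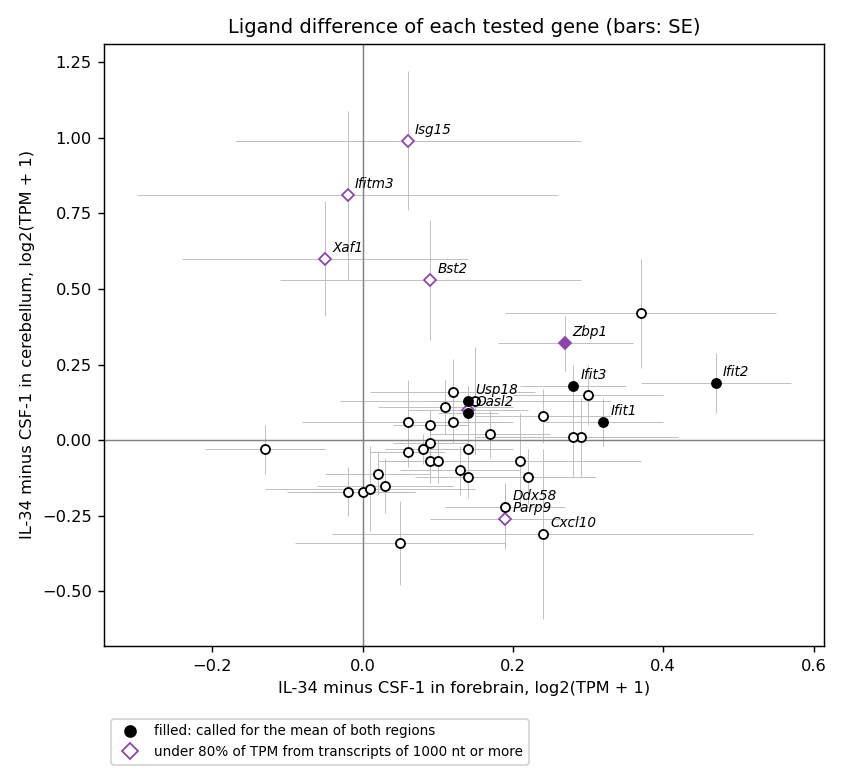
Each point is 1 tested gene, with the IL-34 minus CSF-1 difference in forebrain on the horizontal axis and in cerebellum on the vertical axis, both in log2(TPM + 1) with SE bars. Diamonds mark genes with under 80% of their TPM from transcripts of 1000 nt or more, and Isg15, Ifitm3, Xaf1 and Bst2 stand apart at the top, near 0 in forebrain.

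The scaling of the libraries bears on the ligand comparison. The median difference over all genes in cerebellum was -0.1 under TPM and 0 after median-of-ratios scaling. With that scaling 11 of the 43 genes were called higher with IL-34 and 0 lower over both regions (5.67% of all tested genes higher), 3 in forebrain (1.13%) and 6 in cerebellum (5.58%). The IFIT genes were called higher under TPM, median-of-ratios scaling and quantile normalization alike, 3 of 3 in each. With length and GC trends removed from the transcripts of 1000 nt or more, 20 of 40 tested genes were called higher over both regions (9.21% of all tested genes) and 15 in forebrain (4.15%). Without the 2 libraries of lowest length floor, 2 were called over both regions (0.886%).

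Some of the genes with short transcripts moved differently from the other response genes, a difference that was not tested. In 7 of the 43 tested genes (Parp9, Bst2, Ifitm3, Daxx, Xaf1, Zbp1 and Isg15) under 80% of the TPM came from transcripts of 1000 nt or more, and these gave both cerebellar ligand calls and both calls of higher levels in cerebellum under IL-34. Over both ligands their median regional difference was -0.16, against -0.19 for the 36 other genes, and Daxx was called lower like many of those. Of the 36 other genes, 21 were called lower in cerebellum over both ligands and 0 higher, and 5 higher and 0 lower with IL-34 over both regions. Isg15, a single transcript of 756 nt, was measured at 66.7, 88.6 and 58.3 TPM and 48.5, 87 and 93.1 TPM in forebrain with CSF-1 and IL-34, at 55.8, 64.4 and 81.1 TPM in cerebellum with CSF-1, and at 142, 134 and 122 TPM in cerebellum with IL-34. The 3 cerebellar libraries with IL-34 stood above all 9 others, and they were also the 3 of lowest length floor. With the floor as a covariate the cerebellar ligand difference of Isg15 was 0.4 (SE 0.25, adjusted p = 0.585, limma), and without the 2 libraries of lowest floor it was 0.87 (SE 0.37, adjusted p = 0.333, limma). The part of the floor in this difference was not tested beyond these values.

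**Figure D5:**
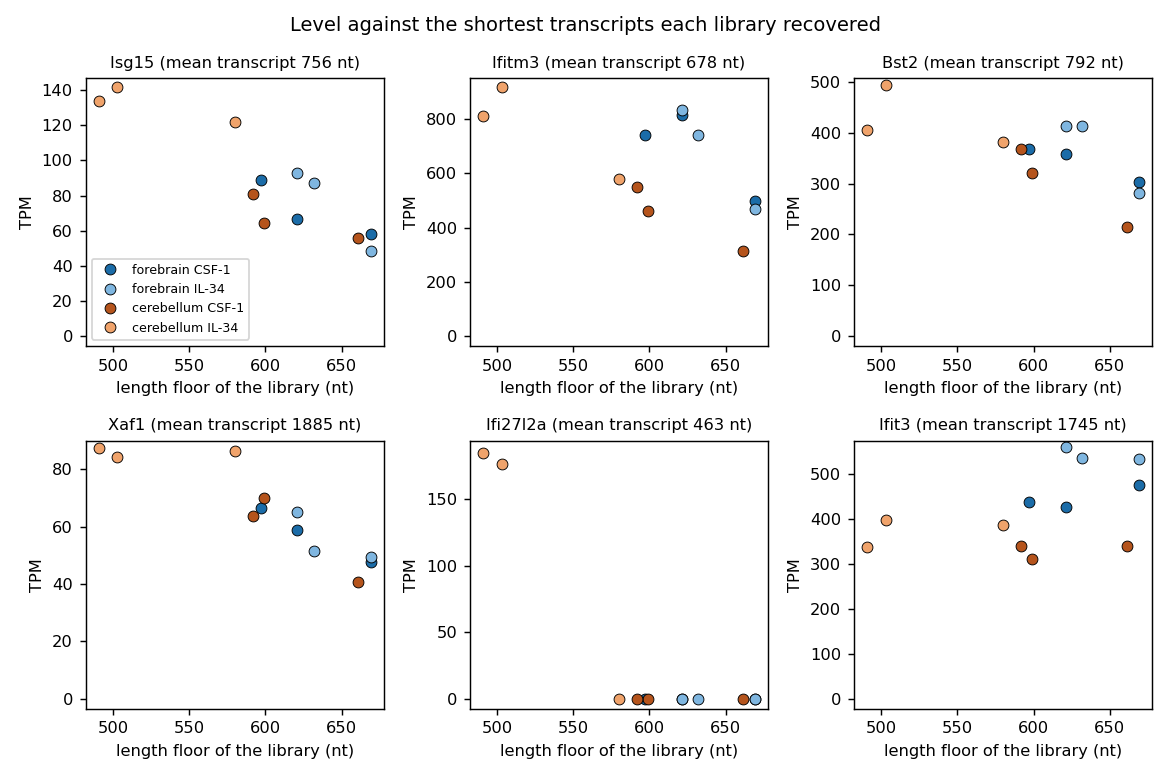
Each panel shows the level of 1 gene in TPM against the length floor of the library in nt, with 1 point per library coloured by group. Isg15 and Ifi27l2a are highest in the cerebellar IL-34 libraries at the left, while Ifit3, with a mean transcript length of 1745 nt, follows the regions.

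Ifitm3, a transcript of 678 nt, was at 816, 742 and 499 TPM and at 467, 742 and 834 TPM in forebrain with CSF-1 and IL-34, at 314, 461 and 551 TPM in cerebellum with CSF-1, and at 919, 810 and 580 TPM in cerebellum with IL-34. Its forebrain libraries spread as widely as the groups differed, and no contrast called it. With the length floor as a covariate the regional difference of Ifitm3 was -0.82 (SE 0.13, adjusted p = 0.00506, limma), against -0.22 (SE 0.2, adjusted p = 0.462, limma) without it. Bst2, or tetherin, which holds budding virus at the cell surface and has a transcript of 792 nt, differed between regions by less than the spread of its libraries, 357 TPM ± 55.2 in forebrain and 364 TPM ± 92.5 in cerebellum (SD, n = 6). Ifi27l2a, a transcript of 463 nt, is listed at 0 in 10 libraries and at 176 and 184 TPM in cerebellum IL-34 replicates 1 and 2, the libraries with the 2 lowest floors. No fold is given for it.

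Xaf1, an interferon-induced gene that favours cell death, differed between its transcripts. Summed over all of them it was at 57.6 TPM ± 9.44 and 55.3 TPM ± 8.47 in forebrain with CSF-1 and IL-34, and at 58.1 TPM ± 15.5 and 86 TPM ± 1.58 in cerebellum (SD, n = 3 each). Xaf1 was called higher in cerebellum under IL-34 (0.64, SE 0.19, adjusted p = 0.0439, limma). Its transcripts of 1000 nt or more summed to between 41.6 and 49.6 TPM in forebrain and between 31.3 and 39.1 TPM in cerebellum. On those alone Xaf1 was lower in cerebellum, over both ligands (-0.41, SE 0.06, adjusted p = 0.000186, limma) and under IL-34 (-0.46, SE 0.08, adjusted p = 0.00193, limma). The regions no longer overlapped, and the direction was the reverse of that for the whole gene. Most of the other TPM lay in the transcript of 651 nt (ENSMUST00000140842), with means of 11.5 TPM ± 12.5, 6.38 TPM ± 11.1, 21.5 TPM ± 19 and 45.2 TPM ± 2.7 in forebrain CSF-1, forebrain IL-34, cerebellum CSF-1 and cerebellum IL-34 (SD, n = 3 each). Zbp1 was similar in part. Its transcripts of 1000 nt or more were at 69.4 TPM ± 7.91 and 82.1 TPM ± 1.12 in forebrain and at 61.2 TPM ± 2.46 and 59.4 TPM ± 4.56 in cerebellum (CSF-1 and IL-34, SD, n = 3 each). On these, Zbp1 was called lower in cerebellum (-0.32, SE 0.05, adjusted p = 0.000634, limma), and its ligand difference did not pass (0.1, SE 0.05, adjusted p = 0.187, limma).

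Of the 18 genes with a promoter entry that were called lower in cerebellum over both ligands, 9 held the motif of the response element, and of the 15 that were not, 5 held it. A test of this difference was not run. Isg15, whose printed sequence holds 3 matches, was among the latter, and so were Stat2, Bst2, Ifitm3 and Eif2ak2.

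Genes upstream of and beside the list were taken from lists set down by function. Of 8 genes for the receptor and its kinases and factors, 3 were called higher in cerebellum, against 9.58% of all tested genes. The receptor chains went up: Ifnar2 from 220 TPM ± 1.94 and 239 TPM ± 11.9 in forebrain to 258 TPM ± 2.52 and 283 TPM ± 7.6 in cerebellum (CSF-1 and IL-34, SD, n = 3 each; 0.23, SE 0.03, adjusted p = 0.000465, limma), and Ifnar1 by 0.17 (SE 0.04, adjusted p = 0.00756, limma). Ptpn6, the phosphatase SHP-1, which dampens cytokine receptors, was higher by 0.18 (SE 0.04, adjusted p = 0.0147, limma). The called receptor genes and the called response genes thus differed between the regions in opposite directions. Ifnar2 was also higher with IL-34 (0.13, SE 0.03, adjusted p = 0.0223, limma).

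Of 18 tested genes that sense nucleic acid or pass the signal to interferon genes, 3 were called lower in cerebellum and 0 higher, a share near the 10.6% of all tested genes called lower. They were Tlr7, the endosomal receptor for single-stranded RNA (-0.27, SE 0.05, adjusted p = 0.00446, limma), Samhd1, which degrades nucleotides (-0.16, SE 0.04, adjusted p = 0.0116, limma), and the kinase Ikbke (-0.31, SE 0.07, adjusted p = 0.0147, limma). With IL-34, 3 were called lower and 0 higher under TPM, against 10.7% of all tested genes called lower, namely Irf5 (-0.17, SE 0.04, adjusted p = 0.0222, limma), Mavs (-0.28, SE 0.07, adjusted p = 0.0245, limma) and Tmem173, or STING (-0.21, SE 0.05, adjusted p = 0.0279, limma). After median-of-ratios scaling 4 were called higher and 1 lower, against 5.67% and 5.02% of all tested genes, so the calls depended on the scaling. Under TPM the median of that list was -0.09, against -0.07 for all tested genes.

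A further list held genes that interferon gamma drives strongly and also the chains of its receptor, Ifngr1 and Ifngr2. Of its 19 tested genes, 11 were called lower in cerebellum and 0 higher, against 10.6% of all tested genes called lower. Ifngr2 was among the 11 and Ifngr1 was not. The median of the list was -0.34. The 3 of smallest p were GTPases: Iigp1, at 2.34 TPM ± 0.393 and 3.3 TPM ± 0.583 in forebrain and 0.544 TPM ± 0.176 and 0.42 TPM ± 0.107 in cerebellum (CSF-1 and IL-34, SD, n = 3 each; -1.35, SE 0.11, adjusted p = 2.02e-05, limma), Gbp6 (-1.11, SE 0.15, adjusted p = 0.000435, limma) and Irgm1 (-0.34, SE 0.04, adjusted p = 0.000437, limma). Many of these genes answer both kinds of interferon. Ifi47, another GTPase, was the 1 gene of that list called higher with IL-34 (0.33, SE 0.1, adjusted p = 0.0484, limma). Among all tested genes 2.73% were called higher.

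Of 45 other tested genes known to be induced by interferon, 19 were called lower in cerebellum and 3 higher, against 10.6% and 9.58% of all tested genes. Ifi205, a relative of Ifi204, fell the most among the 3 of smallest p, from 206 TPM ± 20.4 and 219 TPM ± 9.37 in forebrain to 88.5 TPM ± 7.07 and 87.1 TPM ± 12.2 in cerebellum (CSF-1 and IL-34, SD, n = 3 each; -1.27, SE 0.07, adjusted p = 1.08e-06, limma). Phf11b (-0.64, SE 0.04, adjusted p = 4.62e-06, limma) and the lysosomal reductase Ifi30 (-0.41, SE 0.04, adjusted p = 8.72e-05, limma) followed. With IL-34, Ifitm1 and Trim14 were called higher and 0 lower, against 2.73% and 10.7% of all tested genes. Both were called in cerebellum (1.42 and 0.3), and neither passed in forebrain (0.53 and 0.03). Trim14 adds to MAVS signalling (0.16, SE 0.04, adjusted p = 0.0205, limma), and Ifitm1 stayed at a mean of 2.02 TPM or below in every group (0.98, SE 0.19, adjusted p = 0.0083, limma). In cerebellum Ifitm1 was listed at 0, 0.22 and 0 TPM with CSF-1 and at 1.54, 3.44 and 1.1 TPM with IL-34. Those IL-34 libraries were the 3 of lowest length floor, and the part of the floor in this call was not tested.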

How the data were processed

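The 12 RNA libraries came from primary mouse microglia, and the labels put them in 4 groups of 3. The values the authors deposited are TPM per Ensembl transcript. Per the labels' protocols, cDNA came from a SMART-Seq v4 kit for low input, which does not mark the strand. The same protocol speaks of human tissue, while all other labels are mouse. Per the submitters' processing notes, kallisto 0.43.0 and GRCm38 were used, and no source used here gives the annotation release, filters or bias correction. TPM holds no depth, so depth per library is unknown, and a rise in some transcripts lowers the rest.

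TPM was summed per gene over 115879 transcripts, of which 114255 (98.6%) matched GENCODE M21. No pair among 66 pairs of libraries was identical, and 0 columns were unused. In limma 3.58.1 (R 4.3.3), 4 group means were fitted to log2(TPM + 1) of 12419 genes with a variance trend and 8 residual degrees of freedom, after a test on simulated data. A fold change on this scale understates changes of low genes. Tests were two-sided, with a Benjamini-Hochberg adjustment over all genes and a call at an adjusted p under 0.05. Tables and figures used Python 3.11.15, pandas 2.3.3, numpy 2.4.6 and matplotlib 3.10.9.

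The response genes and lists were chosen with earlier results of these data known. Named with full values were genes called in any of 7 contrasts (20 of smallest p) and the most abundant gene of each class, 24 in all, and up to 3 called genes of each other list. Genes named outside this rule, such as Daxx, Ifih1, Isg20, Adar, Eif2ak2, Mx2, Bst2, Xaf1, Parp9, Stat2, Irf9, Ifnar1, Ifi27l2a and single interferon genes, were chosen after their values were seen. Alternatives were other pseudocounts (0.5 and 0.1), no filter or a filter at 5 TPM, median-of-ratios and quantile scaling, transcripts of 1000 nt or more with and without removal of length and GC trends (lowess span 0.3), the length floor as a covariate, a variance without trend, a replicate block, only the groups compared, and each library left out. A fit without the 2 libraries of lowest length floor was added after seeing the data. Some genes of the marker and pathway lists are not reported here.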

Additional observations from a re-analysis of the deposited data

How the results depend on the processing

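Counts of called response genes are given here where they moved by more than 1.5 times. Brackets give the share of all tested genes called in the same direction. That share is not given for the remaining fits. Over both regions, 6 genes were called higher for IL-34 against CSF-1 (2.73%). That count was 11 with median-of-ratios scaling (5.67%) and 20 on transcripts of 1000 nt or more with length and GC trends removed (9.21%). It was 3 with a variance without trend and 2 without the 2 libraries of lowest length floor (0.886%). In forebrain 1 gene was called, higher (0.427%). The count was 3 with median-of-ratios scaling (1.13%) or on transcripts of 1000 nt or more (1.28%), and 15 with the trends removed (4.15%). It was 2 with the length floor as a covariate (0.644%). It was 0 with no filter, with a variance without trend or with only the groups compared. In cerebellum 2 genes were called, both higher (3.00%). On transcripts of 1000 nt or more 1 was called higher (2.02%) and 2 lower (21.1%), with IL-34. The count was 6 with median-of-ratios scaling (5.58%) and 10 with the trends removed (6.63%). It was 1 with the replicate block (2.05%) or with a variance without trend, and 0 with no filter. With the length floor as a covariate (0.153% higher) or the 2 libraries left out (0.201% higher) it was 0. For cerebellum against forebrain over both ligands 22 were called, 8 with the length floor as a covariate and 12 without the 2 libraries. Under CSF-1 the count was 6, all lower (3.42%). It was 10 with median-of-ratios scaling (5%), 12 on transcripts of 1000 nt or more (6.30%) and 16 with the trends removed (8.95%), all lower. The share of all tested genes called lower thus rose in the same order as the count. The count under CSF-1 was 3 with no filter or with only the groups compared. Under IL-34 the count of 22 was 14 with no filter, 1 with the length floor as a covariate and 3 without the 2 libraries. Leaving out 1 library at a time gave 3 to 8, 0 to 2 and 0 to 2 calls for the ligand contrasts (both regions, forebrain, cerebellum), 16 to 22, 3 to 7 and 11 to 23 for the regional contrasts (both ligands, CSF-1, IL-34), and 0 for the interaction. Fewer genes or samples were tested where transcripts, genes or libraries were left out; otherwise the cause was not tested. The cerebellar ligand difference of Ifitm3 turned from 0.81 to -0.05 with the length floor as a covariate. Of 579 values of the 24 named genes under alternatives, 516 kept their direction and side of the threshold, 59 lost the call, 3 gained it and 1 reversed. Correlations between same-numbered libraries of different groups ran from -0.454 to 0.458 (18 pairs, 5 over 0.1), and between other numbers from -0.455 to 0.569. With 3 libraries in each group, this cannot exclude that same-numbered cultures shared a preparation. With the replicate block the counts were 5 (2.09%), 1 (0.250%) and 1 (2.05%) for the ligand contrasts, all higher. For the regional ones they were 22 (9.39%) and 6 (2.70%), all lower, and 21 (19 lower, 7.16%, and 2 higher, 4.42%). Depth is unknown from TPM, so no floor in counts can be given for genes listed at 0.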
